A study of Canis lupus familiaris with 29 samples.

Results

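The TCA cycle enzymes described here are citrate synthase (CS), isocitrate dehydrogenase 2 (IDH2), the alpha and beta subunits of isocitrate dehydrogenase 3 (IDH3A, IDH3B), subunits of the alpha-ketoglutarate dehydrogenase complex (OGDH, DLST), subunits of succinyl-CoA ligase (SUCLG1, SUCLA2) and malate dehydrogenase 2 (MDH2). Succinate dehydrogenase and fumarate hydratase were not among them. The 9 genes were looked up by name in a table of 30951 genes, of which 18239 had a name. CS, IDH2, IDH3A, DLST, SUCLG1 and SUCLA2 were found, which is 6 of 9, and all 6 passed the low-count filter. IDH3B, OGDH and MDH2 were not found by name and were not analysed here.

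RNA was sequenced from PPGLs of 19 dogs and from NAMs of 10 dogs. NAM stands for normal adrenal medulla and PPGL for pheochromocytoma and paraganglioma, tumors of catecholamine-producing chromaffin cells within the adrenal medulla or elsewhere. The tumors came from patients of several clinics, at surgery or after euthanasia, and the NAMs from healthy research dogs. Tumor pieces were snap-frozen or first fixed in RNAlater, a stabilizing solution, while the NAMs were snap-frozen. Tissue thus cannot be told apart from origin and way of collection. The authors split the tumors by principal component analysis of the same libraries into PPGL group 1, with 7 dogs, and PPGL group 2, with 12. No treatment, age or genotype is given in the labels. The gene counts of a library summed to 19258054 to 35918182 in NAMs (median 25494016.5), 18493540 to 31919833 in group 1 (median 20825468) and 18208718 to 24569667 in group 2 (median 22051743). The lowest count of any of the 6 genes in any sample was 523, which carries a counting error of 4.37%, and all other counts carried less.

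The TCA cycle, in the mitochondrial matrix, oxidizes the acetyl group of acetyl-CoA and passes the electrons to the respiratory chain. Its intermediates also leave the mitochondrion for the synthesis of lipids and amino acids. In human PPGL the cycle is known for inherited mutations of succinate dehydrogenase, fumarate hydratase and, more rarely, other members such as MDH2, through which succinate or fumarate builds up.

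Tissue labels were first set against marker genes. Of 12 chromaffin markers, all 12 were found, and their summed level was 17937 to 97294 CPM (counts per 1000000, TMM-normalized) in NAMs, 8188 to 118805 in group 1 and 20721 to 102973 in group 2. CHGB, which encodes a protein of secretory granules, had the highest mean in each group. Single tumors stood apart, in group 1 with CHGB at 27.0 CPM in replicate 7 and TH at 10.7 and 2.15 CPM in replicates 3 and 5. In group 2 replicate 7 had TH at 32.2 CPM. Of 11 markers of the adrenal cortex, the steroid-producing tissue around the medulla, 10 were found by name and CYP11B2 was not. Their summed level was 12969 to 62681 CPM in NAMs (median 33655), 36.6 to 1151 in group 1 (median 221) and 228 to 31290 in group 2 (median 3400.4). The most abundant was CYP17A1 in NAMs and group 2 and STAR in group 1, and no marker was at 0 in every sample of a group. The NAM libraries thus held cortical RNA beside that of chromaffin cells, whose markers had a median sum of 32385 CPM there. The mean log2 CPM of these 10 markers, called the cortical score below, was 9.40 ± 0.70 (SD, n = 10) in NAMs, 0.71 ± 1.52 (SD, n = 7) in group 1 and 6.18 ± 1.80 (SD, n = 12) in group 2. Scores of NAMs (8.34 to 10.42) and group 1 (-0.90 to 3.29) did not overlap, and the highest score of group 2 (9.30) lay within those of NAMs. In such bulk tissue, fewer cells of a type and less RNA per cell cannot be told apart.

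Of the 6 enzymes measured, 2 were lower in PPGLs than in NAMs and 0 were higher (FDR-adjusted p below 0.05, quasi-likelihood test of edgeR, called the QL test below). Of all 14766 genes tested, 15.2% were lower and 22.3% higher. The lower genes were SUCLG1 and CS. Neither DESeq2 nor the Mann-Whitney U-test called a member higher, and 0 of the 6 had a higher level in PPGLs at an unadjusted p below 0.05. In group 1 IDH2 was higher at that threshold in the QL test (p = 0.0303) and in DESeq2 (p = 0.0327). The Mann-Whitney U-test gave p = 0.133 for it. The median log2 FC of the 6 enzymes was -0.21, beside 0.13 for all genes tested. The same 2 genes were called lower in each PPGL group alone: 2 of 6 in group 1, where 14.1% of 15201 genes were lower and 21.0% higher, and 2 of 6 in group 2, where 14.5% were lower and 18.4% higher. With the cortical score as covariate, 0 of 6 were lower in group 1, where 3 of 15201 genes were lower and 11 higher. In group 2 it was 1 of 6, where 422 of 15201 genes were lower and 681 higher. These contrasts share the 10 NAMs.

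**Figure D1:**
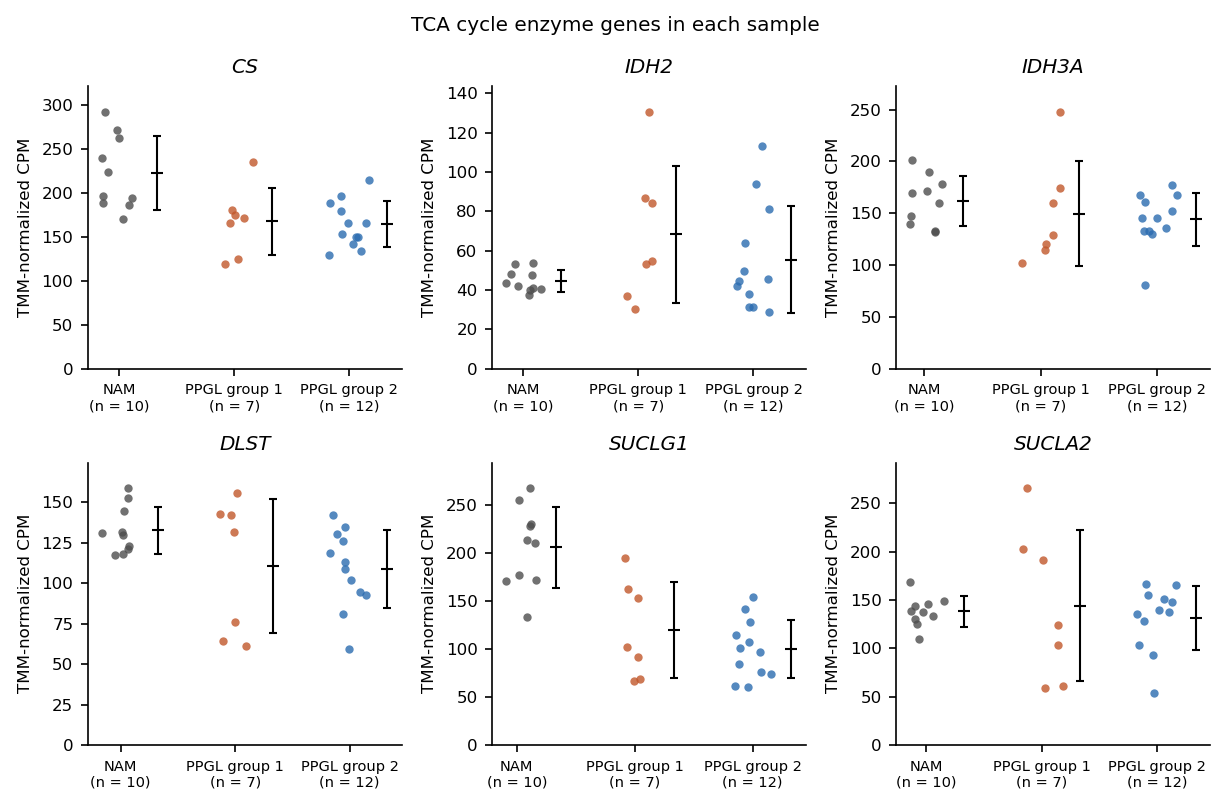
TMM-normalized CPM (linear axis from 0) of the 6 measured enzyme genes in each sample (points), with the group mean and SD (bar at the right of each group). SUCLG1 is below the lowest NAM in 14 of 19 PPGLs and CS in 11 of 19, while IDH2 and SUCLA2 spread to either side of the NAMs.

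CS joins acetyl-CoA to oxaloacetate to form citrate, the entry step of the cycle. The gene lies on chromosome 10 of CanFam3.1 (584904 to 611436, minus strand, 13 exon intervals). Its level was 170.1 to 292 CPM in NAMs (median 210.2), 119.5 to 235 CPM in group 1 (median 172) and 129 to 214 CPM in group 2 (median 159). Of 19 PPGLs, 17 were below the NAM median and 11 below the lowest NAM, and none was above the highest. The groups overlapped between 170.1 and 235 CPM, where NAM 4, the lowest NAM, sat among the tumors. CS fell by 0.42 on the log2 scale in PPGLs (SE 0.11, adjusted p = 0.00308, QL test). The log2 FC was -0.41 in group 1 (SE 0.14, adjusted p = 0.0262) and -0.44 in group 2 (SE 0.12, adjusted p = 0.00695). In group 1 the call was lost without group 1 replicate 4 (adjusted p = 0.0650), without group 1 replicate 7 (0.0839) and without NAM replicate 8 (0.0541), as well as with library sizes in place of TMM (0.0997) or with only NAMs and group 1 in the fit (0.0563). Once the cortical score entered the fit as a covariate, CS had a log2 FC in PPGLs of -0.35 (SE 0.16, adjusted p = 0.134, against 0.00048 to 0.0154 under the other alternatives), so this call was lost as well.

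IDH2 and IDH3 both convert isocitrate to alpha-ketoglutarate in the mitochondrion, IDH2 with NADP+ and IDH3 with NAD+. IDH2 lies on chromosome 3 (53070695 to 53087496, minus strand, 13 exon intervals). Its level was 37.3 to 53.4 CPM in NAMs (median 42.7), 30.4 to 131 CPM in group 1 (median 54.8) and 28.9 to 113 CPM in group 2 (median 44.9). Tumors lay on both sides of the NAMs, 8 of 19 above the highest and 5 below the lowest. The highest were group 1 replicate 7 at 131 CPM, group 2 replicate 7 at 113 CPM and group 2 replicate 11 at 93.8 CPM. The fibroblast marker COL1A1 was at 850, 494 and 7744 CPM in these tumors and at 30.6 to 125 CPM in NAMs. COL1A2, COL3A1, DCN and LUM were also above every NAM in them. PDGFRA, a further fibroblast marker, was at 2.50, 1.15 and 45.2 CPM there and at 1.80 to 13.8 CPM in NAMs. Group 2 replicate 9 had 1252 CPM of COL1A1 and 81.0 CPM of IDH2, and group 1 replicate 3 had 543 and 86.9 CPM. Group 1 replicate 2 had 134 CPM of COL1A1 and 84.2 CPM of IDH2. Its COL1A2 and COL3A1 were within the NAM range and its DCN below every NAM. Group 2 replicate 4 had 2111 CPM of COL1A1 and 38.1 CPM of IDH2. Group 2 replicates 6 and 12 had 400 and 360 CPM of COL1A1 and 44.3 and 31.2 CPM of IDH2. The part of fibroblasts in the level of IDH2 was not tested. The log2 FC of IDH2 was 0.44 in PPGLs (SE 0.22, adjusted p = 0.123), 0.61 in group 1 (SE 0.27, adjusted p = 0.0762) and 0.31 in group 2 (SE 0.24, adjusted p = 0.326), none of them called. In group 1 it was called higher with library sizes in place of TMM (adjusted p = 0.0341), with only NAMs and group 1 in the fit (0.0396), without group 1 replicate 1 (0.0428) and without group 1 replicate 6 (0.0325). Without group 1 replicate 7 the log2 FC in group 1 was 0.38 (adjusted p = 0.265), and without group 2 replicate 7 that in group 2 was 0.17 (adjusted p = 0.598). Library sizes also moved the median log2 FC of all genes in that comparison from 0.13 to 0.24.

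IDH2 varied most of the 6 enzymes among the 19 PPGLs. Its coefficient of variation was 12.5% in NAMs, 51.1% in group 1 and 49.3% in group 2, while the median over 15201 genes was 26.3%, 49.8% and 40.0%. In NAMs 14.5% of genes varied less than IDH2, in group 1 51.7% and in group 2 60.3%. In group 1 alone SUCLA2 varied more, with a coefficient of variation of 54.3%, and 55.1% of genes varied less. CS varied least of the 6 among the 19 PPGLs, with a coefficient of variation of 18.3%, and 1.55% of genes varied less. These spreads are given without a test.

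IDH3A encodes the catalytic alpha subunit of the NAD-linked enzyme and lies on chromosome 3 as well (58302001 to 58318248, plus strand, 11 exon intervals). It ranged from 131 to 202 CPM in NAMs and from 80.3 to 248 CPM in PPGLs, with 6 of 19 tumors below the lowest NAM and 1 above the highest. Group 1 replicate 4 was the tumor at 248 CPM and group 2 replicate 4 the tumor at 80.3 CPM. The log2 FC in PPGLs was -0.15 (SE 0.12, adjusted p = 0.371). IDH3G, its gamma subunit, was lower in PPGLs (log2 FC -0.33, SE 0.11, adjusted p = 0.0147), with 18 of 19 tumors below the NAM median.

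IDH1 is the cytosolic relative of IDH2 and also uses NADP+. Its log2 FC in PPGLs was -1.03 (SE 0.23, adjusted p = 0.000954). It was -0.72 in group 1, not called (SE 0.29, adjusted p = 0.0535), and -1.25 in group 2 (SE 0.25, adjusted p = 0.000428). The log2 ratio of IDH2 to IDH1 counts within a sample does not depend on scaling between samples. It was -1.07 ± 0.47 (SD, n = 10) in NAMs, 0.11 ± 1.19 (SD, n = 7) in group 1 and 0.38 ± 0.93 (SD, n = 12) in group 2. Group 1 exceeded NAM by 1.18 (two-sided exact permutation test, p = 0.0141, adjusted p = 0.0423 over 15 ratio tests) and group 2 by 1.45 (two-sided permutation test, p = 0.000180, adjusted p = 0.00135). In 4 of 7 tumors of group 1 and 9 of 12 of group 2 the ratio was above every NAM. IDH1 was at 55.0 CPM in the NAM with the lowest cortical score and at 177 CPM, the highest of all samples, in the NAM with the highest score, and the part of cortical RNA in this ratio was not tested. The log2 ratio of IDH2 to IDH3A did not pass the test in either group (differences of 0.63 and 0.36, adjusted p = 0.174 and 0.200).

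DLST is the succinyl-transferring core of the alpha-ketoglutarate dehydrogenase complex, which makes succinyl-CoA. Its gene lies on chromosome 8 (48002211 to 48024999, plus strand, 16 exon intervals). The span also holds RPS6KL1 on the opposite strand, with which DLST shares 0 exon bases. The level ranged from 117 to 159 CPM in NAMs, from 61.1 to 156 CPM in group 1 and from 59.2 to 142 CPM in group 2. In group 1, 3 of 7 tumors were below every NAM, and in group 2, 7 of 12. All others were within the NAM range. The log2 FC of -0.28 in PPGLs was not called (SE 0.14, adjusted p = 0.1248). DLD, the dehydrogenase subunit that this complex shares with the pyruvate dehydrogenase complex, was lower in PPGLs (log2 FC -0.60, SE 0.19, adjusted p = 0.0124). OGDHL, a relative of OGDH, had a log2 FC of 0.53 that was not called (SE 0.31, adjusted p = 0.172).

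Succinyl-CoA ligase turns succinyl-CoA into succinate and makes GTP or ATP. SUCLG1 is the alpha subunit of both forms, SUCLG2 the beta subunit of the GTP form and SUCLA2 the beta subunit of the ATP form. SUCLG1 lies on chromosome 17 (40393178 to 40424711, plus strand, 9 exon intervals) and SUCLA2 on chromosome 22 (3440923 to 3478683, plus strand, 10 exon intervals). SUCLG1 was measured at 134 to 268 CPM in NAMs (median 213), 66.9 to 195 CPM in group 1 (median 102) and 60.7 to 155 CPM in group 2 (median 99.1). All 19 PPGLs were below the NAM median and 14 were below the lowest NAM. The 5 others overlapped the lower NAMs and reached 195 CPM in group 1 replicate 3. SUCLG1 fell by 0.93 on the log2 scale in PPGLs (SE 0.17, adjusted p = 0.000124, QL test), the largest change of the 6 enzymes. The log2 FC was -0.78 in group 1 (SE 0.22, adjusted p = 0.00766) and -1.04 in group 2 (SE 0.19, adjusted p = 0.000177). Each library was left out in turn and these calls held, with adjusted p of at most 0.000433 in PPGLs, 0.0207 in group 1 and 0.000526 in group 2. With the cortical score as covariate, the call in group 1 was lost (log2 FC -0.75, SE 0.57, adjusted p = 0.622).

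SUCLG2, listed with the other enzymes of the cycle, was measured at 109.9 to 355 CPM in NAMs (median 254), 51.1 to 107 CPM in group 1 (median 86.6) and 63.2 to 189 CPM in group 2 (median 99.2). All 7 tumors of group 1 and 8 of 12 of group 2 were below the lowest NAM. SUCLG2 fell by 1.32 on the log2 scale in PPGLs (SE 0.17, adjusted p = 2.14e-06), and its log2 FC was -1.55 in group 1 (SE 0.23, adjusted p = 1.18e-05) and -1.21 in group 2 (SE 0.19, adjusted p = 4.17e-05).

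SUCLA2 was measured at 109.8 to 169 CPM in NAMs (median 138), 59.2 to 266 CPM in group 1 (median 124) and 54.1 to 167 CPM in group 2 (median 139). Group 1 lay on both sides of the NAMs, 3 of 7 below and 3 of 7 above all of them, and 3 of 12 tumors of group 2 lay below. Its log2 FC was -0.02 in PPGLs (SE 0.19, adjusted p = 0.952), 0.06 in group 1 (SE 0.24, adjusted p = 0.874) and -0.07 in group 2 (SE 0.21, adjusted p = 0.823). No setting gave a call, though values moved. With the cortical score as covariate the log2 FC was 1.58 in group 1 (SE 0.58, p = 0.0103, adjusted p = 0.237).

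The log2 ratio of SUCLA2 to SUCLG2 counts, the ATP form's beta subunit over the GTP form's, was -1.30 to 0.00 in NAMs (median -0.84), -0.51 to 1.82 in group 1 (median 0.39) and -0.32 to 1.25 in group 2 (median 0.17). It was above every NAM in 6 of 7 tumors of group 1 and in 9 of 12 of group 2. The mean was higher than in NAMs by 1.36 in group 1 (two-sided exact permutation test, p = 0.000617, adjusted p = 0.00309 over 15 ratio tests) and by 1.07 in group 2 (two-sided permutation test, p = 6.0e-05, adjusted p = 0.000900). The groups differed by 0.29 (exact permutation test, p = 0.330, adjusted p = 0.413). NAM 4, with the lowest cortical score (8.34), had the lowest SUCLG2 level and the highest ratio of the NAMs. From the lowest score to the highest (10.42), the NAMs stood in the order 4, 5, 3, 10, 2, 1, 9, 7, 6 and 8. SUCLG2 was at 109.9, 221, 138, 186, 245, 355, 263, 269, 313 and 319 CPM in that order. The part of cortical RNA in the level of SUCLG2 and in this ratio was not tested. The log2 ratio of SUCLG1 to SUCLA2 averaged 0.56 ± 0.17 (SD, n = 10) in NAMs. Group 2, at -0.40 ± 0.78 (SD, n = 12), was lower by a mean log2 ratio of -0.96 (permutation test, two-sided, p = 0.00108, adjusted p = 0.00405), and 11 of 12 tumors were below every NAM and 1 above. In group 1, with 5 of 7 tumors below every NAM and 2 above, it was -0.17 ± 1.17 (SD, n = 7), a difference from NAMs of -0.72 that did not pass the test (exact permutation test, p = 0.0771, adjusted p = 0.165).

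**Figure D2:**
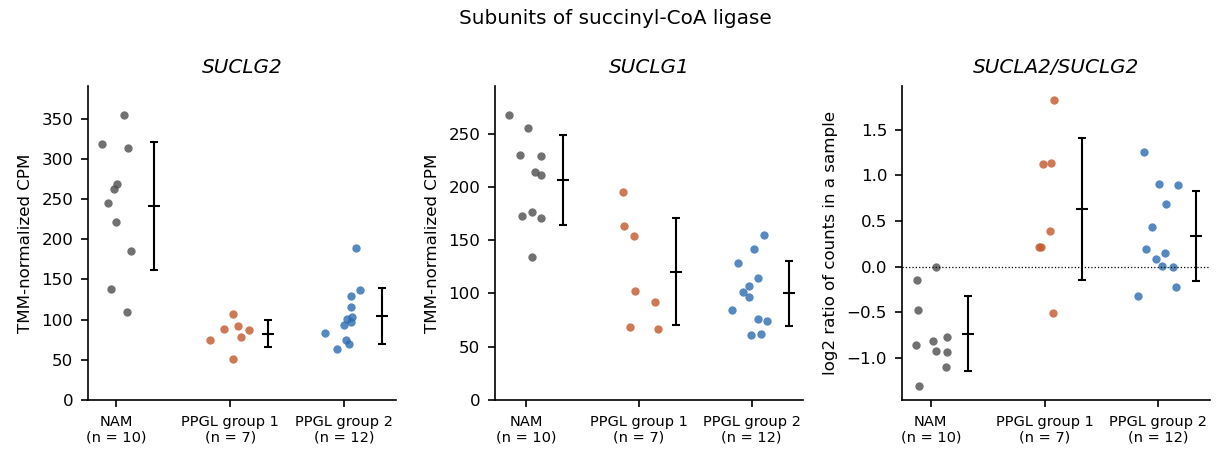
TMM-normalized CPM of SUCLG2 and SUCLG1 and the log2 ratio of SUCLA2 to SUCLG2 counts in each sample (points), with the group mean and SD (bars). All tumors of group 1 have less SUCLG2 than the lowest NAM, and the ratio is above every NAM in 6 of 7 tumors of group 1 and 9 of 12 of group 2.

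Between the PPGL groups, 0 of 6 enzymes were called in either direction at the threshold of 0.1 for the adjusted p (QL test), where 2.95% of 14666 genes were lower and 3.97% higher in group 1. At an unadjusted p below 0.05 the count was 0 as well, and DESeq2 and the Mann-Whitney U-test called 0. The groups were drawn from these libraries, so a p between them describes the split. The largest difference was that of IDH2, a log2 FC of 0.30 (SE 0.31, adjusted p = 0.633), which was 0.082 without group 1 replicate 7.

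Levels were set against each other between genes per kb of annotated exon length, so the order depends on that annotation. In NAMs SUCLG1 led with 188 ± 38.4 CPM per kb (SD, n = 10), above CS at 127 ± 24.0, SUCLA2 at 106 ± 12.0 and IDH3A at 92.8 ± 13.9. DLST at 40.2 ± 4.42 and IDH2 at 32.6 ± 4.07 came last. In group 2 the first 4 lay close together, SUCLA2 at 101 ± 25.2 CPM per kb (SD, n = 12), CS at 93.7 ± 14.96, SUCLG1 at 91.5 ± 27.9 and IDH3A at 82.4 ± 14.6. IDH2 at 40.4 ± 19.9 and DLST at 32.9 ± 7.29 were again last. In group 1 SUCLA2 at 110.2 ± 59.9 (SD, n = 7) and SUCLG1 at 109.9 ± 45.9 led, followed by CS at 95.7 ± 22.0, IDH3A at 85.6 ± 28.8, IDH2 at 49.8 ± 25.5 and DLST at 33.5 ± 12.6.

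The rest of the cycle was read from a list of 10 other enzymes, of which 9 were found and tested. In PPGLs 6 of 9 were lower and 0 higher, beside 15.2% and 22.3% of all genes, with a median log2 FC of -0.60 beside 0.13 for all genes. The 6 were SUCLG2, IDH3G, DLD, the succinate dehydrogenase subunits SDHA (log2 FC -0.72, adjusted p = 0.000250) and SDHC (-0.84, adjusted p = 4.0e-05), and fumarate hydratase FH (-0.62, adjusted p = 0.00166). SDHB, a further subunit of succinate dehydrogenase, had a log2 FC of -0.45 that was not called (adjusted p = 0.131). In NAM 4 and NAM 8, with the lowest and highest cortical scores, SDHA was at 283 and 407 CPM and SDHC at 112 and 288. FH was at 78.0 and 138 CPM there, DLD at 153 and 323 and IDH3G at 165 and 208. The part of cortical RNA in these levels was not tested. In each PPGL group 5 of 9 were lower (14.1% of all genes in group 1 and 14.5% in group 2), and the lists differed in DLD (log2 FC -0.32 in group 1, adjusted p = 0.284, and -0.80 in group 2, adjusted p = 0.00254) and IDH3G (-0.41, adjusted p = 0.0211, and -0.30, adjusted p = 0.0539).

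**Figure D3:**
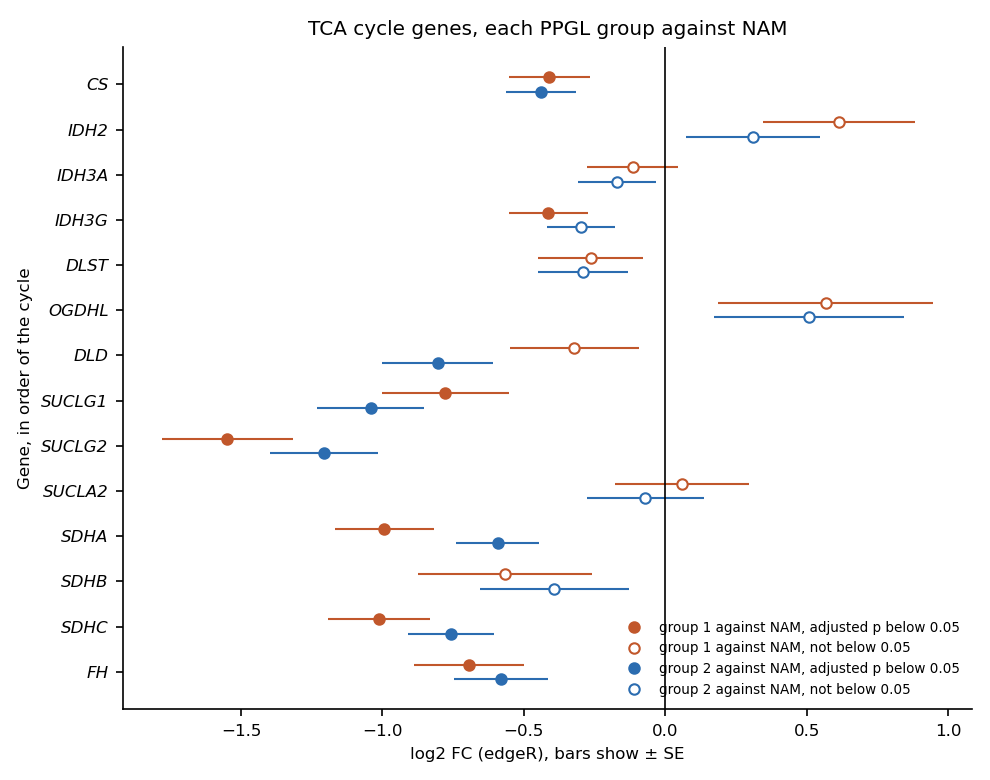
log2 FC from edgeR (points) with its SE (bars) of TCA cycle genes, in the order of the cycle, for each PPGL group against the same 10 NAMs. Filled points have an adjusted p below 0.05. SUCLG2 has the lowest values (-1.55 and -1.21), and SUCLA2 lies near 0.

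Pyruvate enters the cycle as acetyl-CoA through the pyruvate dehydrogenase complex or as oxaloacetate through pyruvate carboxylase. Of 14 genes listed for this entry, 12 were tested, and 6 were lower and 0 higher in PPGLs, where 15.2% of all genes were lower and 22.3% higher (median log2 FC -0.56). The largest changes were those of PDK4, a kinase that inactivates the complex (log2 FC -2.07, SE 0.49, adjusted p = 0.00144), pyruvate carboxylase PC (-1.91, SE 0.31, adjusted p = 3.41e-05) and PDPR, a regulatory subunit of the phosphatase that reactivates the complex (-1.48, SE 0.18, adjusted p = 9.04e-07). PDK4 was at 34.9 and 137 CPM in NAM 4 and NAM 8, with the lowest and highest cortical scores. PC was at 115 and 378 CPM there and PDPR at 56.9 and 83.3 CPM. The part of cortical RNA in these levels was not tested. In group 1 6 of 12 were lower (14.1% of all genes), and in group 2 7 of 12 (14.5%).

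Of 16 genes for cytosolic counterparts and exchange, 14 were tested, with 7 lower and 1 higher in PPGLs (15.2% and 22.3% of all genes, median log2 FC of the list -0.51), 4 lower and 1 higher in group 1 (14.1% and 21.0%), and 7 lower and 1 higher in group 2 (14.5% and 18.4%). SLC25A1, which exports citrate from the mitochondrion, had the largest change (log2 FC -1.29, SE 0.17, adjusted p = 1.47e-06), followed by IDH1 and the mitochondrial aspartate aminotransferase GOT2 (-0.77, SE 0.19, adjusted p = 0.00195). The level of SLC25A1 was highest in the NAM with the highest cortical score (235 CPM). Among tumors it was highest in the one with the highest score (160 CPM), and the part of cortical RNA in it was not tested. Nor was it tested for GOT2, at 41.9 and 106 CPM in the NAMs with the lowest and highest scores. The aspartate-glutamate carrier SLC25A12 was higher (0.72, SE 0.13, adjusted p = 0.000146). The log2 ratio of CS to ACLY, which splits exported citrate in the cytosol, did not pass the test in either PPGL group (differences from NAM of -0.74 and -0.32, adjusted p = 0.165 and 0.200).

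Of 8 genes for lipoylation and complex partners, 7 were tested and 2 were lower in PPGLs (15.2% of all genes), ADHFE1 (log2 FC -1.09, adjusted p = 0.000273) and DHTKD1 (-0.99, adjusted p = 0.00862), a relative of OGDH that acts in lysine breakdown. LIAS, which makes the lipoyl group that DLST carries, had a log2 FC of 0.08 (adjusted p = 0.743). In group 1 the count was 1 of 7 (14.1% of all genes) and in group 2 it was 2 of 7 (14.5%), and 0 were higher.

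Of 12 genes tested that stand for mitochondrial content, 2 were lower and 0 higher in PPGLs (15.2% and 22.3% of all genes), with a median log2 FC of -0.06. The 2 were the matrix protease LONP1 (log2 FC -2.30, SE 0.25, adjusted p = 1.62e-07) and PHB2 of the inner membrane (-0.44, SE 0.18, adjusted p = 0.0490). LONP1 was highest in the 2 NAMs with the highest cortical scores (1141 and 1213 CPM) and, among tumors, in the one with the highest score (491 CPM), and the part of cortical RNA in it was not tested. In each PPGL group 1 of 12 was lower, LONP1 (14.1% of all genes in group 1 and 14.5% in group 2). Of 13 regulators of mitochondrial genes, 2 were higher in PPGLs (22.3% of all genes), MYC (log2 FC 1.47, SE 0.45, adjusted p = 0.0119) and GABPA (0.44, SE 0.16, adjusted p = 0.0365), and the median log2 FC was 0.13, that of all genes. MYC was called higher in each PPGL group, in group 1 through 2 of 7 tumors (306 and 409 CPM), while the other 5 were below the NAM median of 36.2 CPM. In group 2 all 12 tumors were above that median. SIRT3 was lower in group 2 (-0.64, SE 0.20, adjusted p = 0.0143).

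Within the 10 NAMs, the level of most enzymes rose with the cortical score. Over 18 relations of 6 enzymes in 3 groups, the log2 CPM of SUCLA2 had Pearson's r = 0.90 with the score in NAMs (two-sided permutation p = 0.000200, adjusted p = 0.00360) and Spearman's rho = 0.94 (p = 0.000260, adjusted p = 0.00468). SUCLG1 had r = 0.88 (p = 0.000580, adjusted p = 0.00522) and rho = 0.88 (p = 0.00166, adjusted p = 0.0146). IDH3A had r = 0.88 (p = 0.00130, adjusted p = 0.00585) and rho = 0.87 (p = 0.00244, adjusted p = 0.0146). For CS r was 0.86 (p = 0.00112, adjusted p = 0.00585) and rho 0.82 (p = 0.00616, adjusted p = 0.0277). Without the 2 NAMs farthest from the median score, r was 0.90 for SUCLA2, 0.81 for SUCLG1, 0.77 for IDH3A, 0.81 for CS, 0.47 for IDH2 and 0.56 for DLST. With library sizes in place of TMM, r in the 10 NAMs was lower, at 0.61 for SUCLA2, 0.79 for SUCLG1, 0.69 for IDH3A, 0.73 for CS, 0.31 for IDH2 and -0.23 for DLST. DLST (r = 0.13, permutation p = 0.723, rho = 0.18, p = 0.632) and IDH2 (r = 0.59, p = 0.0698, rho = 0.56, p = 0.0948) did not pass the test in NAMs.

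In the tumors no relation passed the test after adjustment. SUCLA2 in group 2 came nearest (r = 0.65, permutation p = 0.0316, adjusted p = 0.114, rho = 0.38, p = 0.216), and r was 0.28 without the 2 tumors farthest from the median. IDH2 had negative values in group 1 (r = -0.65, exact permutation p = 0.109, rho = -0.75, p = 0.0663) and in group 2 (r = -0.58, permutation p = 0.0513, rho = -0.45, p = 0.145), and without those 2 tumors of a group r was -0.27 and -0.50. DLST was negative in group 1 as well (r = -0.62, exact permutation p = 0.148, rho = -0.75, p = 0.0663, r = -0.81 without 2). CS, which rose with the score in NAMs, had r = 0.05 in group 2 (permutation p = 0.887, rho = -0.08, p = 0.817). The difference between NAMs and tumors in r was not tested.

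**Figure D4:**
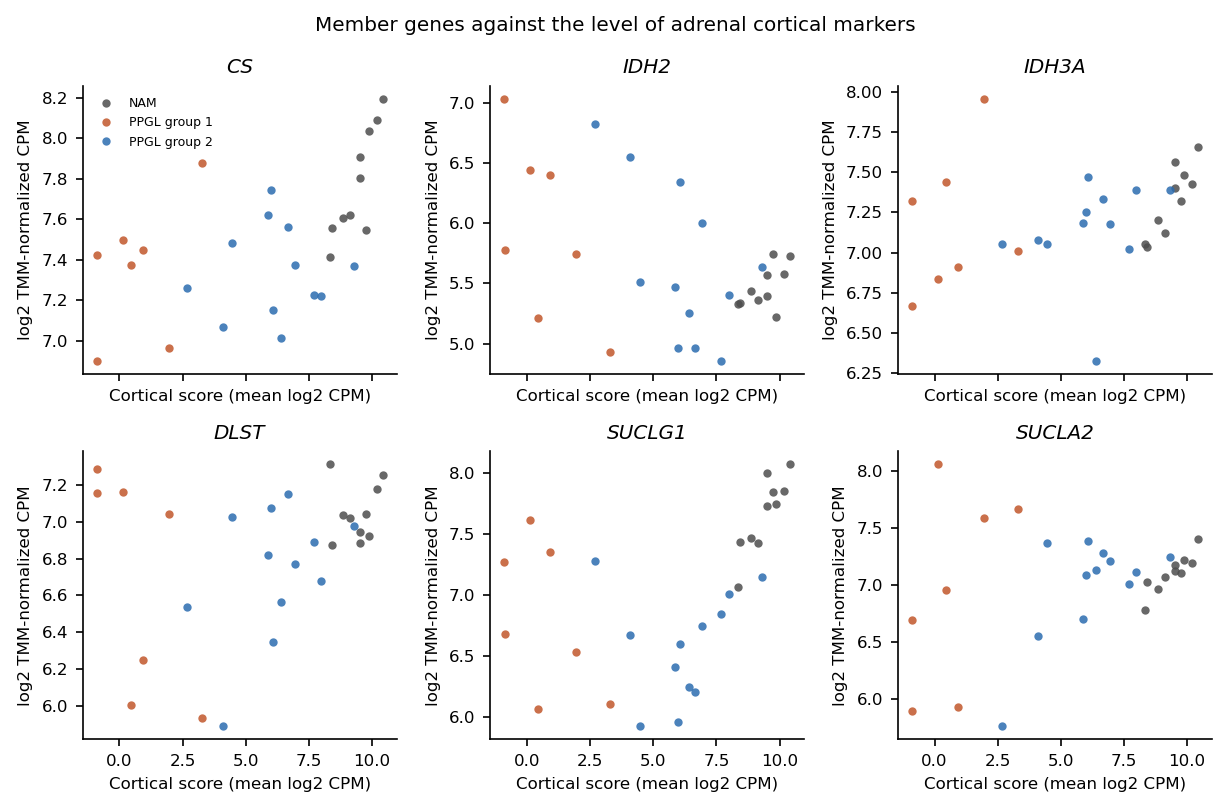
log2 TMM-normalized CPM of each measured enzyme gene against the cortical score (mean log2 CPM of 10 cortical markers), 1 point per sample. Among NAMs, SUCLA2, SUCLG1, IDH3A and CS rise with the score (r from 0.86 to 0.90), and group 1 lies at scores that no NAM has.

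The score was also used as a covariate of the fit. SUCLG1 in PPGLs then had a log2 FC of -1.11 (SE 0.25, adjusted p = 0.00314), and in group 2 one of -1.03 (SE 0.28, adjusted p = 0.0223), both still called. In group 1 the log2 FC of SUCLG1 was -0.75 (SE 0.57, adjusted p = 0.622) and 14 genes in all were called. Scores of group 1 do not overlap those of NAMs, and 11 of 12 tumors of group 2 also lie below the lowest NAM, so these fits compare tissues at scores they hardly share. The log2 FC of CS was -0.24 in group 2 (adjusted p = 0.435) and 0.11 in group 1 (adjusted p = 0.936). IDH2 changed sign, to -0.16 in PPGLs (adjusted p = 0.722), -1.28 in group 1 (adjusted p = 0.375) and -0.43 in group 2 (adjusted p = 0.373).

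Other cell types were followed by their markers, with levels summed over all those found. The shares of all genes called lower and higher were 15.2% and 22.3% in PPGLs, 14.1% and 21.0% in group 1, and 14.5% and 18.4% in group 2. Of 6 fibroblast markers 4 were higher in PPGLs (4 in group 2, and 1 in group 1, where 1 was lower), and their summed level had a median of 412 CPM in NAMs, 511 in group 1 and 953 in group 2, led by COL1A2 in NAMs and COL3A1 in the tumors. Of 5 endothelial markers 3 were lower (1 in group 1 and 3 in group 2, medians of 622, 382 and 379 CPM). Of 5 leukocyte markers tested 1 was higher and 1 lower (medians of 158, 95.4 and 83.2 CPM), and all 3 erythroid markers tested were higher (1 in group 1 and 3 in group 2, medians of 0.312, 1.70 and 3.37 CPM). None of the 3 Schwann cell and sustentacular markers tested was called (medians of 48.5, 16.3 and 7.84 CPM). The part of these cell types in the levels of the enzymes was not tested.

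How the 6 enzymes varied among themselves was described by correlating their log2 CPM over the 29 samples after the group means had been removed. Over 15 pairs the median r was 0.00, with 7 pairs above 0 and 8 below. The highest was that of IDH2 with SUCLG1 (r = 0.66) and the lowest that of IDH2 with SUCLA2 (r = -0.48). In the 10 NAMs alone 12 of 15 pairs were above 0 (median r = 0.52), with SUCLG1 and SUCLA2 at r = 0.91, while in the 19 PPGLs 7 of 15 were above 0 (median r = -0.01), with SUCLG1 and SUCLA2 at r = -0.34. These values are a description with no p, and the difference between the tissues was not tested.

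For each enzyme, the 2 named genes with the highest r over the same 29 samples were then taken from 12975 named genes. SUCLG1 was nearest to TMEM150A (r = 0.91) and APH1A (r = 0.89), DLST to NEMF (r = 0.85) and AREL1 (r = 0.83), and SUCLA2 to ESD (r = 0.82) and TIMM23 (r = 0.82). IDH3A was nearest to TMEM128 (r = 0.81) and GRPEL1 (r = 0.80), CS to TMEM131 (r = 0.80) and DESI1 (r = 0.72), and IDH2 to TSPAN4 and PODNL1 (r = 0.77 for each). Of these 12 genes, 9 lay on the chromosome of their enzyme, among them both for SUCLG1 on chromosome 17, DLST on chromosome 8, IDH3A on chromosome 3 and CS on chromosome 10, and ESD on chromosome 22. These chromosomes hold between 1.09% and 3.54% of the genes searched. For DLST, r with NEMF was 0.90 in the 19 PPGLs and -0.10 in the 10 NAMs, and with AREL1 it was 0.89 and 0.01. For SUCLG1 both tissues gave high values, 0.94 and 0.78 with TMEM150A. DNA copy number was not measured, and the position was looked at after the genes were known.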

How the data were processed

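Libraries of stranded mRNA from 10 NAMs and from the PPGLs of group 1 (7) and group 2 (12) were read as single ends of 50 bp. The deposited unit is the count of reads per gene over exons, made by the authors from reads aligned to CanFam3.1 with STAR, without normalization. How reads on several genes and strands were counted is not given in the sources used here. No exon base of the 6 enzymes lies in another gene. Of 30951 genes, 12712 had no name.

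Counts were filtered with edgeR's filterByExpr (minimum count 10, minimum total 15), normalized by TMM and tested with the QL test of edgeR over all genes with Benjamini-Hochberg adjustment. PPGLs were compared with NAMs in a fit of 2 groups, each PPGL group with NAMs in a fit of 3, and group 1 with group 2 in the 19 PPGLs. Log2 ratios within a sample (0.5 added to each count) and correlations used permutation tests. These were exact wherever group 1 took part and used 100000 resamples otherwise. log2 CPM had 0.1 added. A floor of 3 counts equals 0.0835 to 0.165 CPM before TMM and covers counting error only.

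Members and gene lists were chosen with earlier results of these data known. Named genes are the members, the other TCA enzymes (1 of them not shown) and lipoylation genes tested, of each remaining list at most 3 called genes in a direction and comparison (those with the largest absolute log2 FC), partners in ratios, 2 nearest genes per member and markers. Alternatives were DESeq2's size factors, library sizes, DESeq2's Wald test, the Mann-Whitney U-test, no filter or 1 CPM, the replicate number as a block, a covariate for the cortex, other groups in the fit, each library left out, 5 added to each count and correlations by library size. Planned ratios with OGDH, IDH3B or MDH2, promoter motifs and protein identities were not made. All 132 pairs of libraries within groups differed beyond sampling noise (lowest chi-square per degree of freedom 46.0). The QL test was also run on simulated counts with no cortical differences built in, and the outcome is not given here. Software was Python 3.11.15 with scipy 1.17.1 and matplotlib 3.10.9, and R 4.3.3 with DESeq2 1.42.0, limma 3.58.1 and edgeR 4.0.16.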

Additional observations from a re-analysis of the deposited data

Results flagged for a closer look

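A single value lay far from the rest of its group among 26 checks of the enzyme levels, ratios, cortical scores and total counts in NAMs and group 1. The log2 ratio of CS to ACLY was -2.48 in NAM replicate 3, and the next lowest NAM had -1.78. The gap was above Dixon's 95% critical value, which chance exceeds in about 1 of 20 groups, so about 1 such value was to be expected among the 26 checks.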

How the results depend on the processing

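The replicate numbers of the labels did not pair the samples: same-numbered samples had residual correlations of -0.23 to 0.25, and 2 of 24 best matches had the same number. With the replicate number as a block, 1921 genes were higher in group 1 than in NAMs (3194 without it) and 37 were lower and 10 higher in group 1 than in group 2 (433 and 582), and the calls of the enzymes did not change. In that fit the log2 FC of SUCLA2 was -0.034 in group 1 against NAMs, and between the groups those of CS and DLST were -0.0089 and -0.10, each with a changed sign and none called.

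With the cortical score as a covariate, 1021 genes were lower and 1250 higher in PPGLs, 3 and 11 in group 1, 422 and 681 in group 2, and 0 and 0 between the groups, and the enzymes called lower fell from 2 to 1, 0 and 1 against NAMs. This fit removes differences that run along with the score. It changed the sign of the log2 FC of IDH2 (-0.16 in PPGLs, -1.28 in group 1, -0.43 in group 2, -1.02 between the groups), SUCLA2 (0.14 in PPGLs, 0.49 in group 2), IDH3A (0.55 in group 1, 0.081 in group 2), CS (0.11 in group 1) and DLST (-0.068 between the groups). SUCLA2 kept its sign but moved from 0.06 to 1.58 in group 1 (adjusted p = 0.237) and from 0.13 to 1.05 between the groups (p = 0.0486, adjusted p = 0.474). With library sizes the log2 FC of SUCLA2 in PPGLs was 0.043, and r of DLST with the score in NAMs was -0.23. Library sizes, or only NAMs and group 1 in the fit, gave 1 enzyme lower and 1 higher in group 1, CS no longer called and IDH2 called. The Mann-Whitney U-test gave 1932 genes higher in group 1 than in NAMs. Between the groups it gave 226 lower and 160 higher, DESeq2's Wald test 877 and 916, and 3 groups in the fit 1162 and 1405. The cause of these changes was not tested.

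With each library left out, the enzymes called in group 1 ranged from 1 to 2 lower and 0 to 1 higher, and genes between the groups from 269 to 485 lower and 256 to 733 higher, the lowest without group 1 replicate 7. The log2 FC of SUCLA2 ranged from -0.095 to 0.031 in PPGLs, -0.16 to 0.20 in group 1, -0.11 to 0.0051 in group 2 and -0.076 to 0.27 between the groups. That of IDH2 ranged from 0.33 to 0.48 in PPGLs, 0.38 to 0.74 in group 1, 0.17 to 0.37 in group 2 and 0.082 to 0.44 between the groups. Between the groups CS ranged from -0.064 to 0.11, IDH3A from -0.10 to 0.15 and DLST from -0.081 to 0.13. Direction and call, though not always the size, or for counts a size within 1.5 times, were kept in 346 results under the alternatives and in 837 with a library left out. Under the alternatives 15 results changed sign, 5 lost and 2 gained a call and 25 counts moved further, and with a library left out 20, 3, 2 and 8 did.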

Other observations

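The cytosolic malate dehydrogenase MDH1 had a log2 FC of -0.58 in PPGLs (SE 0.17, adjusted p = 0.00806, edgeR's QL test), while its mitochondrial counterpart was not found by name. MDH1 was at 368 CPM in the NAM with the lowest cortical score and at 698 CPM in that with the highest. Among tumors it was highest in the one with the highest score (545 CPM), and the part of cortical RNA in it was not tested. Of the markers of tissues that might adhere to the adrenal gland, APOA1 of 3 liver markers found passed the filter and was lower in PPGLs (log2 FC -1.26, SE 0.43, adjusted p = 0.0203), 1 of 4 muscle markers was lower and 0 of 2 fat markers tested were called (15.2% of all genes were lower and 22.3% higher). In group 1, 2 of 4 muscle markers and 1 of 2 fat markers were lower (14.1% of all genes), and in group 2 1 of 2 fat markers was higher (18.4%).

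Several limits hold for all values. The 3 enzymes not found by name include the first subunit of the alpha-ketoglutarate dehydrogenase complex and the last enzyme of the cycle. Transcript levels do not give enzyme activity. Tissue cannot be told apart from the origin of the dogs and the way of collection. The NAMs hold cortical RNA, and the scores that measure it do not overlap between NAMs and group 1.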
